A study of Mus musculus with 16 samples.

Results

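Peak lists of H3K27me3, trimethylation of histone H3 at lysine 27, were compared between mouse embryonic stem cells without Mettl14 and their controls. The members were the 4 lists of chromatin immunoprecipitation with an H3K27me3 antibody, 2 from cells labelled Mettl14 CKO (KO below) and 2 from cells labelled Mettl14 Control, out of 16 samples in all. They held 36310 of the 117176 peaks in the 12 lists of the series, which covers 3 histone marks and has 4 further input libraries, not analysed here. All the cells were C57BL/6 embryonic stem cells grown with serum, LIF and the kinase inhibitors CHIR99021 and PD0325901, and the labels give no age, promoter or Cre, no clone number and no day of knockout. Nothing in the labels says that the 2 replicates of a group came from separate cultures, so the spread between them may be technical. The series asks how histone modifications change when Mettl14 or Mettl3 is lost. Cells without Mettl3 were not analysed here.

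METTL14 forms, with METTL3, the enzyme that places N6-methyladenosine on RNA. H3K27me3 is written by Polycomb repressive complex 2 (PRC2), whose catalytic subunits are EZH1 and EZH2, and is read by CBX proteins of Polycomb repressive complex 1 (PRC1). In embryonic stem cells the mark is known for covering CpG-rich starts of silent developmental genes, among them the Hox clusters and many homeobox, Fox, Sox and Wnt genes, and for lower levels at such starts in medium with both kinase inhibitors. Each list gives only where a peak lies and how wide it is, so the results below are positions, widths and counts of called peaks, not amounts of the mark.

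Sequences of 5 transcription starts show the kind of DNA involved. Each is the RefSeq promoter window on build GRCm38.p6 (the assembly of mm10), 250 bases before the start to 50 after it, written 5′ to 3′ on the gene's strand, with every CG dinucleotide in capitals. Efna3 (chr3:89321719-89322018, minus strand) and Fgfr3 (chr5:33721474-33721773, plus strand) met a peak in both KO lists and in neither control list. Cdh8 (chr8:99416422-99416721, minus strand) met a peak in both control lists and in neither KO list. Neurod2 (chr11:98329596-98329895, minus strand) met one in all 4 lists. Esrrb (chr12:86360867-86361166, plus strand) was the only embryonic stem cell marker of 8 with any H3K27me3 peak, in both KO lists.
Efna3: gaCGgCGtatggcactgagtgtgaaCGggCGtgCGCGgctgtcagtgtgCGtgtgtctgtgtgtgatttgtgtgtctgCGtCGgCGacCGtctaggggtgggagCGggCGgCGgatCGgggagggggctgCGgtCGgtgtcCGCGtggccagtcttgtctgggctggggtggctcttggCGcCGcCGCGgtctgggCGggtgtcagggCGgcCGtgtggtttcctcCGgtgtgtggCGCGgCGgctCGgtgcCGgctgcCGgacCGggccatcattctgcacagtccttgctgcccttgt
Fgfr3: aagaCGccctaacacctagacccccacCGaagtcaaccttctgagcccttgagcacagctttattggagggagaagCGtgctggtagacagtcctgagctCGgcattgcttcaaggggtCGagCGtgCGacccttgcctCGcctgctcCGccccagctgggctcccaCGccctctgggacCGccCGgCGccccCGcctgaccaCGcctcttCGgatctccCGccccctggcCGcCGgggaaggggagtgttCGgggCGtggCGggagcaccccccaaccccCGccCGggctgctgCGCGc
Cdh8: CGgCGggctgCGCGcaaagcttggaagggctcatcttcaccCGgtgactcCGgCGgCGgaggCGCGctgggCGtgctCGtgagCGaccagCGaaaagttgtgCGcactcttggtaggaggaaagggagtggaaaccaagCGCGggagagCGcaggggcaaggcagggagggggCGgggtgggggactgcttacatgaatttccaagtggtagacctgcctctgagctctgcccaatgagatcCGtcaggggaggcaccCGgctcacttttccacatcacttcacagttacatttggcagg
Neurod2: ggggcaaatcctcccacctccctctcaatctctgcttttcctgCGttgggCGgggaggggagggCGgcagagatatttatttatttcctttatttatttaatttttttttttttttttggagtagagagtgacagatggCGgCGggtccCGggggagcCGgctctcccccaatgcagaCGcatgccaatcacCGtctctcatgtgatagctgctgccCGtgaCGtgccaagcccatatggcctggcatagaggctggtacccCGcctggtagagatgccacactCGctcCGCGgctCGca
Esrrb: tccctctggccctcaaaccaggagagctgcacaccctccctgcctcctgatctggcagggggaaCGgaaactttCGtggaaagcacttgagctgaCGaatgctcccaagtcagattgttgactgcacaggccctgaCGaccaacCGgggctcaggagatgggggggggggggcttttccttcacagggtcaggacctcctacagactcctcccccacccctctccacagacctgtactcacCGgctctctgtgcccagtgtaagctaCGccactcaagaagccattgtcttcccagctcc
The windows held 34 CG dinucleotides at Efna3, 26 at Fgfr3, 21 at Cdh8, 16 at Neurod2 and 7 at Esrrb. Over all 21263 promoter windows the median was 13, so the windows of the first 4 genes were richer in CG than most and that of Esrrb was poorer.

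KO lists held more and wider peaks than control lists. There were 11349 and 11446 peaks in KO cells, against 6312 and 7203 in control cells. The peaks averaged 891 and 918 bp in KO cells, against 708 and 712 bp in control cells, a difference of 0.35 on the log2 scale. The groups did not overlap in either measure, and the exact two-sided permutation test of each gave p = 0.33, the smallest value that 2 lists against 2 can give. No comparison below can therefore pass a threshold of 0.05, and each is read against the spread of the 2 lists. The narrowest width in every list was 501 bp, which was also the median width in all 4 lists. Peaks of that width made up 56.2% and 55.0% of the KO lists, against 62.0% and 63.2% of the control lists. In number they were 6373 and 6295 in KO cells, against 3913 and 4555 in control cells, so the lists differed at the minimum width as well as above it. The 99th percentile of width was 5009.8 and 5177 bp in KO cells, against 2973 and 2996 bp in control cells. The lists as deposited were ordered with wide peaks first (Spearman correlation of row number with width −0.86 and −0.87 in KO lists, −0.79 in both control lists).

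**Figure D1:**
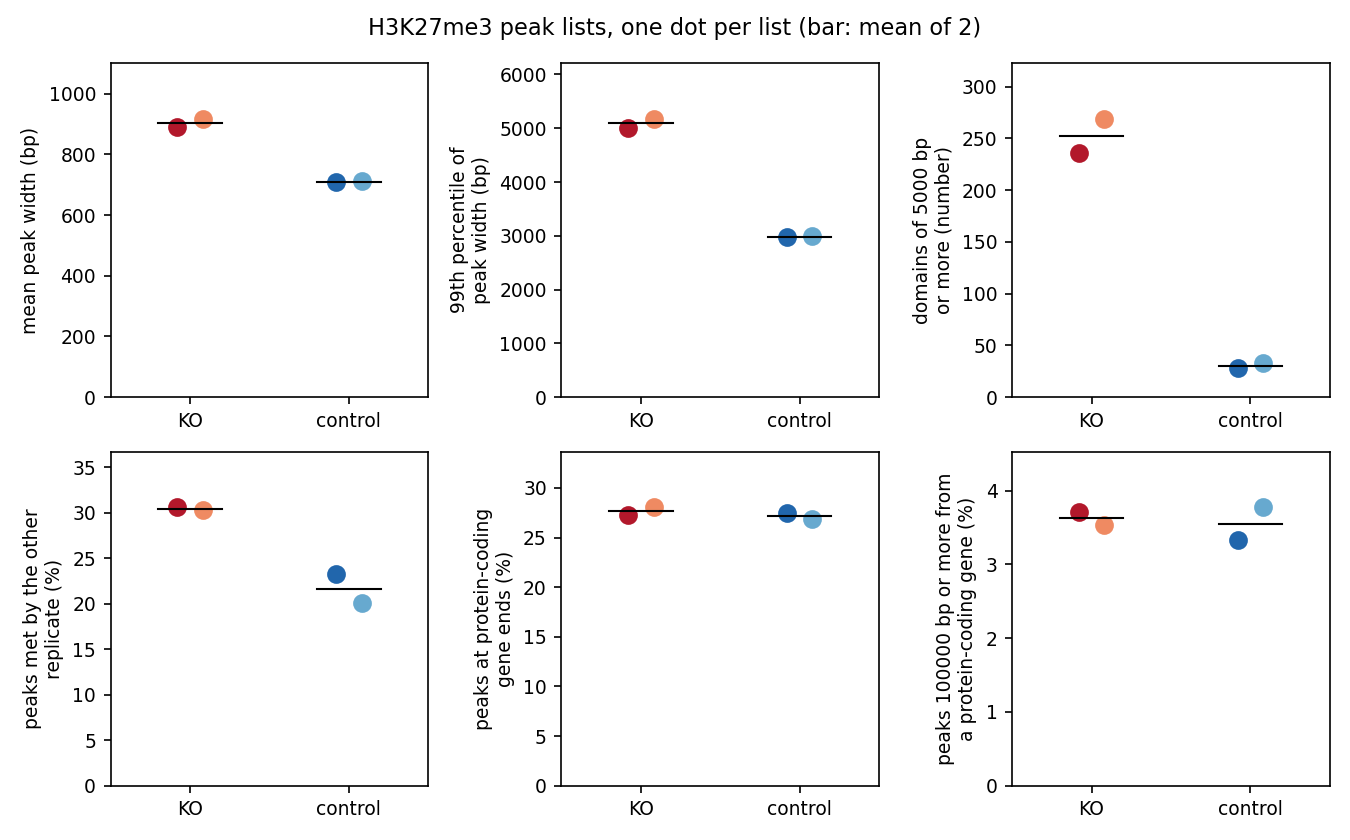
Measures of the H3K27me3 lists, with 1 dot for each of the 2 KO lists (left) and the 2 control lists (right) and a bar at their mean. Width, wide domains and the share of peaks met by the other replicate lay apart between the groups (252.5 against 30.5 wide domains on average), while the shares of peaks at gene ends and far from genes overlapped.

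Most peaks were not shared between replicates. Of KO peaks, 30.6% and 30.3% overlapped a peak of the other KO list by at least 1 bp, against 23.2% and 20.1% of control peaks in the other control list. Replication depended on width in every list. At 501 bp, 15.5% and 15.0% of KO peaks and 14.1% and 11.02% of control peaks were met by the other replicate. Over 2000 and up to 5000 bp the shares were 84.0% and 80.1% in KO cells, against 73.2% and 69.1% in control cells, and above 5000 bp they were 95.7% and 94.5% in KO cells, against 100% and 92.9% in control cells. There were 115 and 127 peaks above 5000 bp in KO cells, against 6 and 14 in control cells, so the control shares in that class rest on few peaks. When all 4 lists were merged where peaks overlapped, 19082 of 25113 regions (76.0%) came from 1 list alone. Regions in both KO lists and neither control list numbered 1210 (4.82%), regions in both control lists and neither KO list numbered 259 (1.03%), and 879 (3.50%) were in all 4. For scale, each of the 4 ways of taking 1 KO list with 1 control list, and no other list, held 486 to 563 regions, above the 259 of the control pair and below the 1210 of the KO pair.

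**Figure D2:**
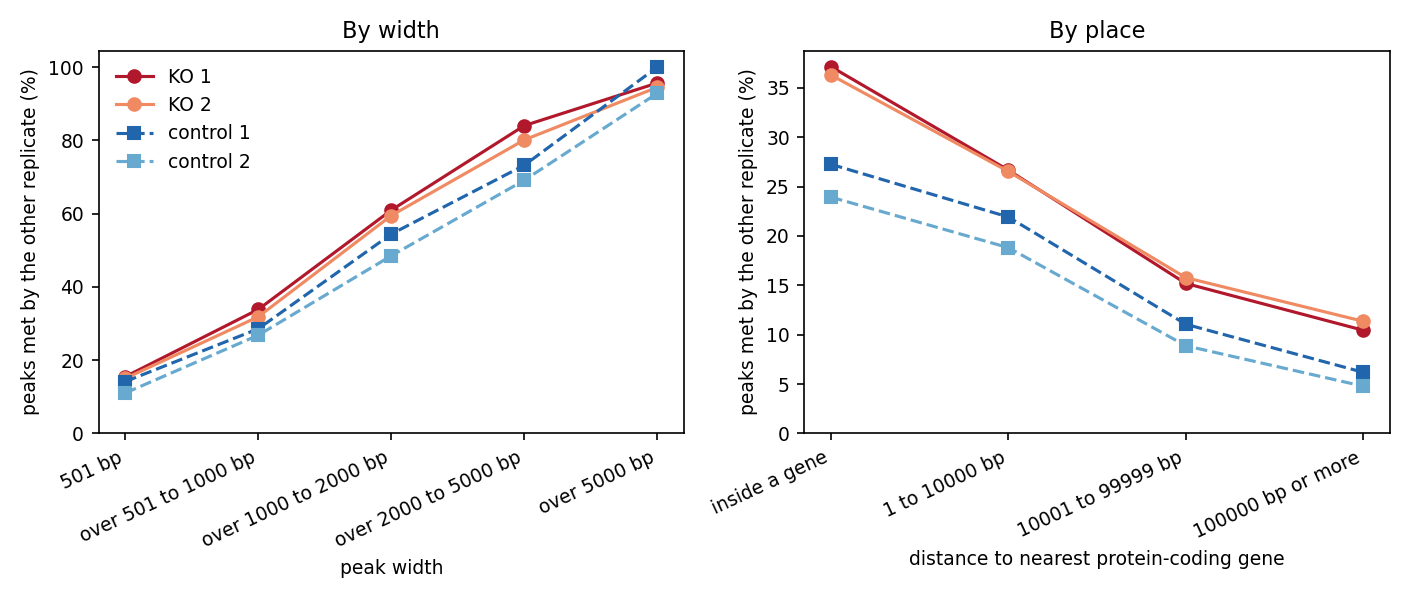
Share of peaks (%) that overlap a peak of the other replicate of the same group, by peak width (left) and by distance to the nearest protein-coding gene (right), with KO lists as circles and control lists as squares. Support climbs with width to over 90% above 5000 bp in all 4 lists and falls with distance from genes to 10.5% and 11.4% in KO lists and 6.19% and 4.78% in control lists.

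The contrast between the groups was greatest among wide domains, here peaks of 1 list joined where they lay up to 1000 bp apart. Domains of at least 5000 bp numbered 236 and 269 in KO cells, against 28 and 33 in control cells, a difference of 3.05 on the log2 scale. They covered 1.75 and 1.95 Mb in KO cells, against 0.191 and 0.227 Mb in control cells. Domains of at least 10000 bp numbered 24 and 30 in KO cells, against 3 and 2 in control cells. The fold between the groups grew with the width asked for, from 1.63 for all domains to 4.52 at 3000 bp, 8.28 at 5000 bp and 10.8 at 10000 bp. With domains joined over up to 5000 bp instead, the difference was 1.25 on the log2 scale.

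Wide KO domains stood where control lists also had peaks. Of the 120 domains of at least 5000 bp in both KO lists, 104 touched a peak in both control lists and none touched no control peak. Of the 120, 8 were also at least 5000 bp wide in both control lists. The 120 were picked for their width in KO lists, so that count does not compare the groups. An end of a protein-coding gene lay within 1000 bp of 98 of them, 20 touched a member of the transcription factor families listed below, and none was gene-poor. For scale, 27.3% and 28.1% of all KO peaks lay at such ends and 3.71% and 3.54% were gene-poor. Wide domains reach a gene end more readily by their size, so these shares are not like for like. Each of the 120 thus met a peak in at least 1 control list.

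The domain with the greatest width in both KO lists lay at Onecut3, a homeobox transcription factor gene of neurons, on chr10:80487116-80506176. It measured 18797 and 18662 bp in KO cells, against 5953 and 6369 bp in control cells. Lhx5, a LIM-homeobox gene of the forebrain, followed with 17750 and 16456 bp in KO cells, against 8745 and 6147 bp in control cells. The domain at Pax2, a paired-box gene of kidney and hindbrain, measured 22914 and 14755 bp in KO cells, against 4461 and 3257 bp in control cells. The domains were ranked by their smaller KO width, so KO widths above control widths partly follow from that choice. The domain at Dlx1 and Dlx2, homeobox genes of forebrain interneurons, measured 20967 and 13211 bp in KO cells, against 4411 and 2753 bp in control cells. Hoxb7, Hoxb8 and Hoxb9 lay in 1 domain of 13436 and 13870 bp in KO cells, against 3738 and 1737 bp in control cells. Lists of 1 group differed widely at other places in this top 10. Neurod2, a proneural transcription factor gene, had 11941 and 14817 bp in KO cells, against 4339 and 11821 bp in control cells. Uncx, a homeobox gene of somites, had 12889 and 12525 bp in KO cells, against 2064 and 9250 bp in control cells.

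**Figure D3:**
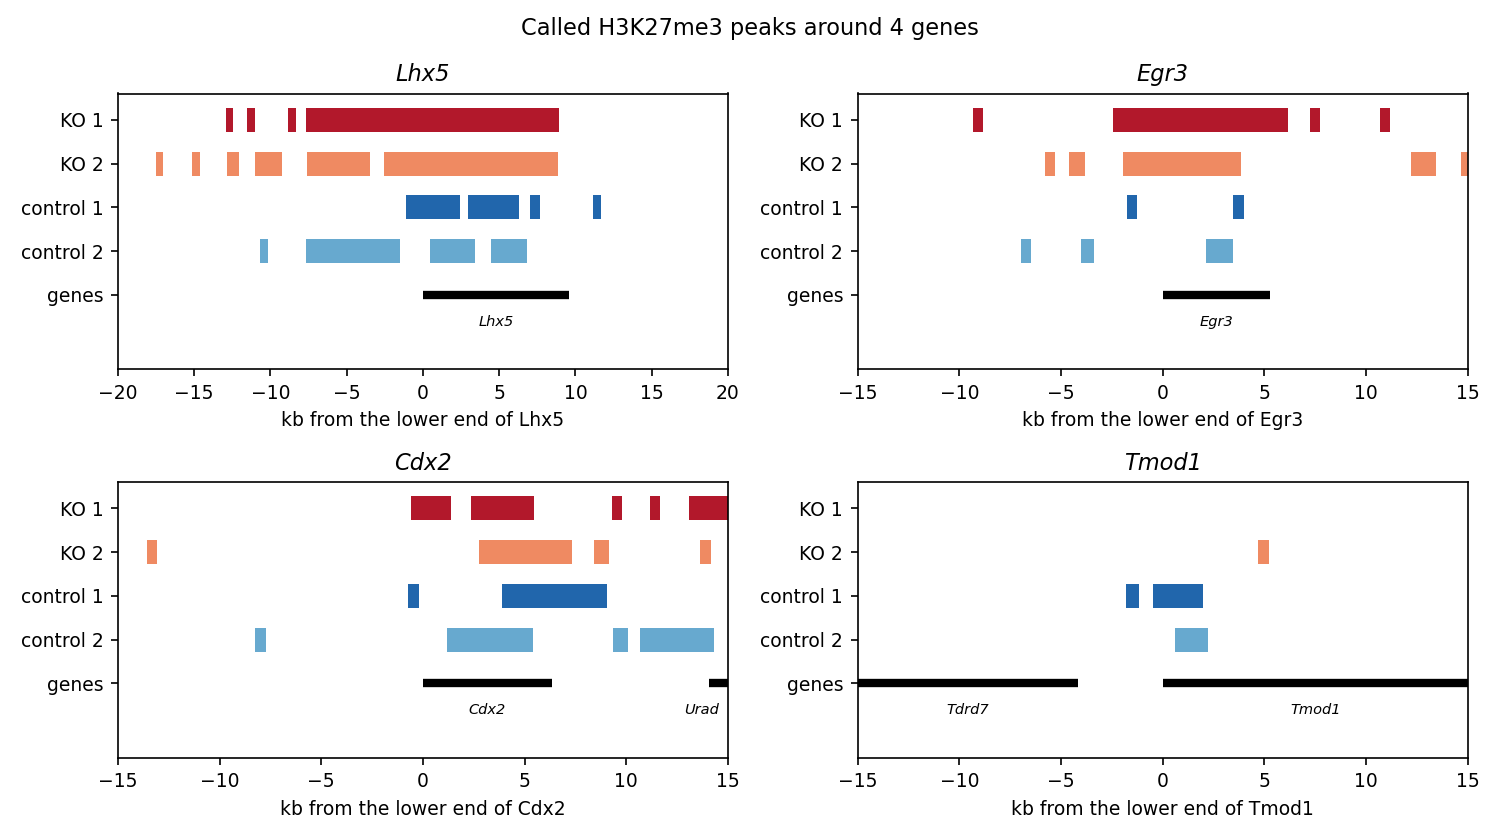
Called peaks (bars) of the 2 KO lists (upper rows) and the 2 control lists (lower rows) around Lhx5, Egr3, Cdx2 and Tmod1, in kb from the end of the gene with the lower coordinate, with gene bodies in black. KO peaks run across Lhx5 and Egr3 where control peaks are shorter, all 4 lists have wide peaks at Cdx2, and both control lists but no KO list have a peak at the lower end of Tmod1.

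Among the 879 regions called in all 4 lists, called bases were greater in KO cells in 757 and smaller in 117. The median ratio was 0.87 on the log2 scale. In 483 regions (54.9%) both KO lists exceeded both control lists, and in 22 (2.50%) both control lists exceeded both KO lists. The ratio varied with width. In 5 classes of equal size by mean width over the 4 lists, narrowest to widest, the median log2 ratio was 0.31, 0.92, 1.00, 1.16 and 0.98, so only the narrowest of these 5 classes, where 501 bp limits how small a peak can be, stood below the others. Regions at ends of transcription factor family genes had a median of 1.13 (68 regions), those at other protein-coding gene ends 0.92 (528 regions) and those with no protein-coding gene end 0.62 (271 regions). Hox gene ends, part of the first set, had a median of 0.86 (14 regions). The standard deviation over the 879 regions was 0.78. In the 271 regions with no protein-coding gene end the spread was not looked at separately. In regions with no protein-coding gene end the median called bases were 1500 and 1575 bp in KO cells, against 836 and 881 bp in control cells. At transcription factor family ends they were 3031 and 3413 bp in KO cells, against 1350 and 1568.5 bp in control cells.

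The largest gain of width in a shared region was at Islr2, a transmembrane protein gene of neurons, with 6254 and 8769 bp in KO cells, against 1591 and 501 bp in control cells (3.05 on the log2 scale). The region of Kcnj4, an inward-rectifier potassium channel gene, and Kdelr3 had 3165 and 4494 bp in KO cells, against 501 bp in each control list. The region next to Six2, a homeobox gene of kidney progenitors, had 4478 and 4656 bp in KO cells, against 501 and 1002 bp in control cells. The other regions among the 10 largest touched ends of Fam171a2, Ppp1r16b, Camkv, Egr3, Epha10 with Maneal, and B3gnt3 with Insl3 and Jak3, and 1 touched a predicted gene. These 10 were picked for their ratio of KO to control bases, so wider KO peaks there follow from that choice.

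Some shared regions were wider in control cells. At Shc3, a signalling adaptor gene, called bases were 1551 and 501 bp in KO cells, against 2000 and 2592 bp in control cells (−1.37 on the log2 scale). At Naglu, a lysosomal enzyme gene, they were 501 bp in each KO list, against 1367 and 1002 bp in control cells, and at Slc4a8, a bicarbonate transporter gene, 501 bp in each KO list, against 1256 and 1019 bp in control cells. These regions were picked for the smallest ratios, so wider control peaks there follow from that choice. One end of Hoxc9 (chr15:102973132-102976685) had 1350 and 759 bp in KO cells, against 1777 and 2442 bp in control cells. Spop, Ctnnd2 and Triobp ends also stood among the 10 smallest ratios.

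Peaks gathered on the downstream side of transcription starts in both groups. Over 21238 distinct starts, coverage was highest 1000 bp inside the gene in every list, where 1175 and 1227 starts were covered in KO cells, against 527 and 555 in control cells. At the start itself 838 and 897 were covered in KO cells, against 283 and 407 in control cells. At 10000 bp upstream 196 and 186 were covered in KO cells, against 92 and 91 in control cells. The ratio of KO to control means was 2.51 at the start, 2.22 at 1000 bp downstream and 2.09 at 10000 bp upstream. The first control list dipped at the start more than the other lists, with 0.537 of its maximum left there, against 0.713 and 0.731 in KO lists and 0.733 in the second control list. Against the second control list alone the ratio was 2.13 at the start and 2.16 at 1000 bp downstream, so the larger ratio at the start rested on the first control list.

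**Figure D4:**
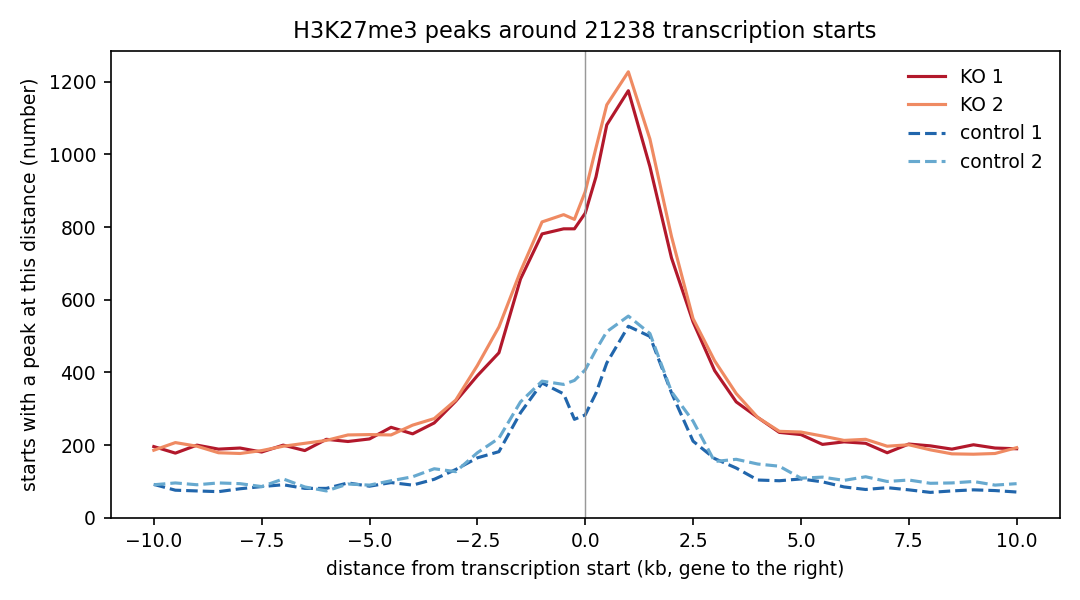
Number of 21238 transcription starts covered by a peak at each distance from the start (kb, positive inside the gene), with KO lists as solid lines and control lists as dashed lines. All 4 lists peak at 1 kb inside the gene, at 1175 and 1227 starts in KO cells and 527 and 555 in control cells.

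The promoter windows under peaks of both lists of a group were rich in CG in either group, and those under a peak in 1 list alone less so. Windows under peaks of both KO lists alone had a median of 22 CG dinucleotides (257 windows), those under peaks of both control lists alone 21 (21 windows), those under peaks of all 4 lists 21 (49 windows), those under a peak in 1 list alone 16 (1119 windows), and those under no peak 12 (19332 windows). A GC content of at least 50% with an observed-to-expected CG ratio of at least 0.6 was met by 68.5% of the first set, 61.9% of the second, 71.4% of the third, 50.4% of the windows under a peak in 1 list alone and 44.1% of the last. The sets called in both lists of 1 group and no list of the other had nearly the same CG content.

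A larger share of Polycomb target families than of all protein-coding genes was called in both groups, and in most families the share was larger in KO cells. A gene was called in a list when a peak lay within 1000 bp of either of its ends. Of 21887 protein-coding genes, 1717 (7.84%) were called in both KO lists and 792 (3.62%) in both control lists. Of 492 members of 26 families known for Polycomb targets, 205 (41.7%) were called in both KO lists and 124 (25.2%) in both control lists, and 374 (76.0%) in at least 1 list, where 20.3% of all protein-coding genes were. The KO share exceeded the control share by a larger factor over all protein-coding genes than over the 26 families together. More calls in KO cells were therefore not particular to these families. There were 21 families with more members called in both KO lists, 3 (Pax, Cdx and the family of Six2) with equal numbers, and the Lhx group and Wnt with more in both control lists. Neither exception held when 501 bp peaks were left out, with 7 Wnt genes in both KO lists and 6 in both control lists, and 5 of the Lhx group in each. In the wider 50% of each list the Lhx group was also at 5 and 5, and Wnt at 7 and 8. The families were chosen with earlier results known, and members of a cluster can share a peak, so these counts are descriptions without a test. Many single genes named below were picked for wide peaks in both KO lists. Their widths do not show what is typical of a family.

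**Figure D5:**
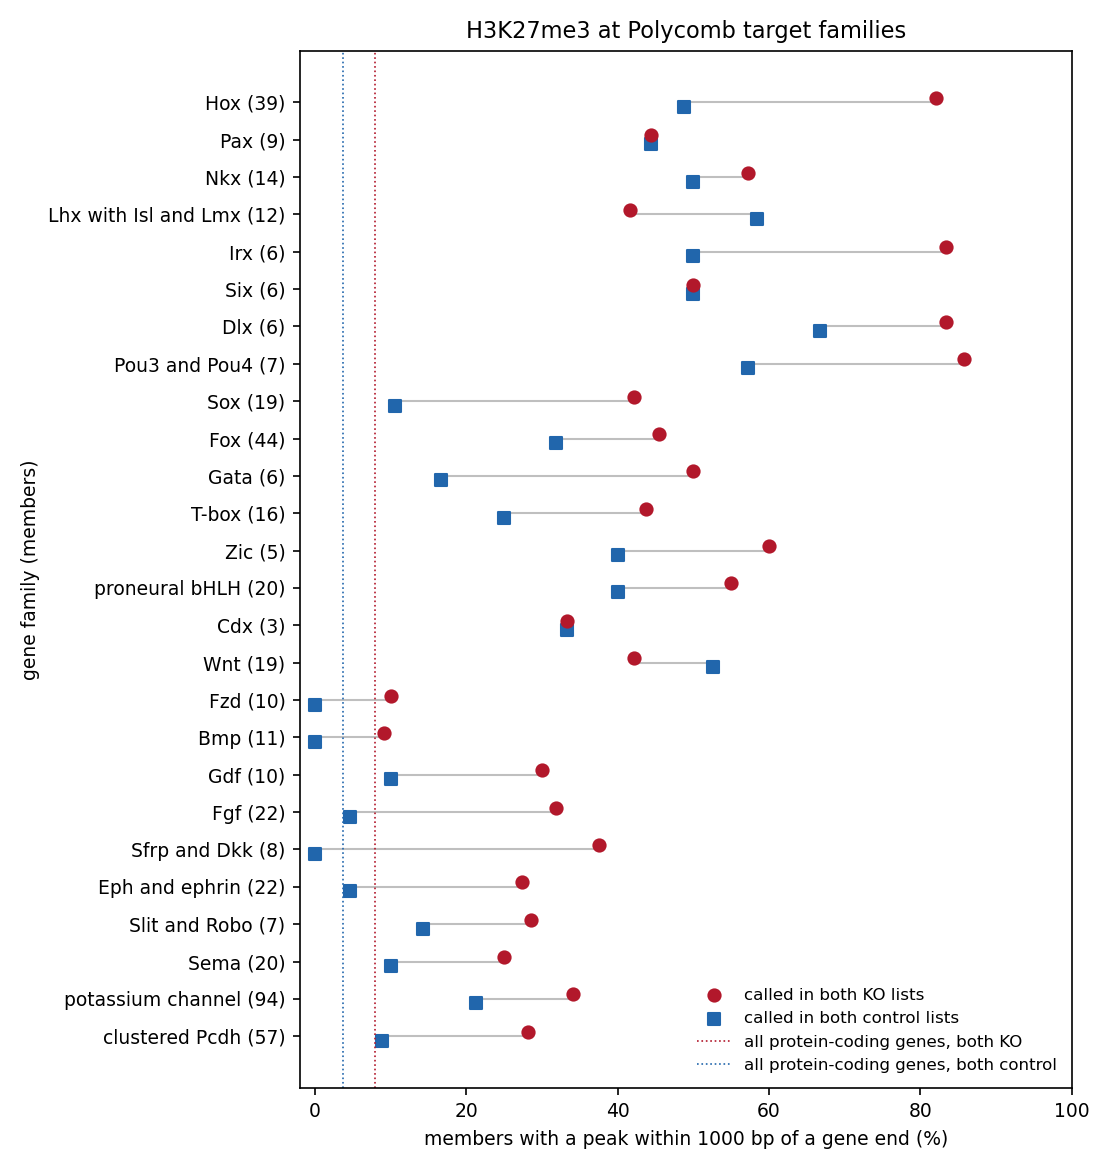
Share of members (%) of 26 gene families with a peak within 1000 bp of a gene end in both KO lists (red circles) and in both control lists (blue squares), with dotted lines at the shares of all protein-coding genes (7.84% and 3.62%). Red lies right of blue in 21 families. The Lhx group and Wnt lie the other way, which was not so without 501 bp peaks but was so at equal list length.

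Hox genes give cells their position along the body axis. All 39 were called in at least 1 list, 32 (82.1%) in both KO lists and 19 (48.7%) in both control lists. Over the Hoxa cluster peaks covered 38.8% and 33.5% of the span in KO cells, against 12.4% and 20.7% in control cells. The Hoxb cluster was covered to 27.02% and 21.1% in KO cells, against 12.8% and 9.32% in control cells, and the Hoxd cluster to 26.2% and 26.1% in KO cells, against 11.9% and 17.6% in control cells. The Hoxc cluster was closest, with 24.4% and 23.7% in KO cells, against 10.2% and 18.7% in control cells. The groups did not overlap in any of the 4 clusters.

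Single Hox genes did not all follow. The widest peak at an end of Hoxb8 measured 6567 and 4234 bp in KO cells, against none and 689 bp in control cells, and that of Hoxb5 3769 and 9221 bp in KO cells, against 827 and 795 bp in control cells. At Hoxa13 the values were 3420 and 2735 bp in KO cells, against 913 and 1523 bp in control cells. Hoxa9 had 1783 and 1057 bp in KO cells, against 2322 and 1949 bp in control cells, so it was wider in control cells. Hoxb2 had no peak at its ends in KO cells, against 702 and 501 bp in control cells, though its region held 501 bp of the second KO list. Hoxc12 had no peak in KO cells, against 501 bp in both control lists. Hoxd4 was called in 1 control list alone.

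Other homeobox families varied. Of 6 Irx genes, 5 were called in both KO lists and 3 in both control lists, and of 6 Dlx genes 5 and 4. Of 7 Pou3 and Pou4 genes, 6 were called in both KO lists and 4 in both control lists. Nkx2-2, a gene of ventral neural tube and pancreas, had 10759 and 7636 bp in KO cells, against 501 and 1183 bp in control cells. Nkx1-1 had 5470 and 6020 bp in KO cells, against 8596 and 4729 bp in control cells, so its groups overlapped. In the Lhx group with Isl and Lmx, 5 of 12 genes were called in both KO lists and 7 in both control lists. Lhx9 and Lhx6 made the difference, with no peak and 2914 bp at Lhx9 in KO cells, against 2206 and 990 bp in control cells, and no peak and 752 bp at Lhx6 in KO cells, against 1922 and 501 bp in control cells. At each of them only the first KO list lacked a peak. Pax6, a gene of eye and forebrain, had no peak in KO cells, against 501 bp in both control lists. Cdx2, which drives trophectoderm and hindgut fate, had 3110 and 4577 bp in KO cells, against 5142 and 4261 bp in control cells, so its groups overlapped.

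Of 19 Sox genes, 8 were called in both KO lists and 2 in both control lists, and of 44 Fox genes 20 and 14. Sox21 had 4664 and 9405 bp in KO cells, against 1143 bp and no peak in control cells. Foxf1, of visceral mesoderm, had 6296 and 5512 bp in KO cells, against 1317 bp and no peak in control cells. Foxd1, of kidney stroma, went the other way with no peak in KO cells, against 865 and 1380 bp in control cells. Gata2, of blood progenitors, had 7637 and 3928 bp in KO cells, against 1942 and 1330 bp in control cells. Gata3 and Gata5 were called in both KO lists and no control list, though the region of Gata5 held 1266 bp of the second control list. Among T-box genes, Tbx1 had 5653 and 8901 bp in KO cells, against 501 and 1880 bp in control cells. T (brachyury), of primitive streak, had no peak at its ends in KO cells, against 1210 and 923 bp in control cells. Of 20 proneural bHLH genes, 11 were called in both KO lists and 8 in both control lists.

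Genes of secreted signals and their inhibitors split by family. Of 22 Fgf genes, 7 were called in both KO lists and 1 in both control lists, and that one, Fgf8, had 924 and 3165 bp in KO cells, against 4335 and 2145 bp in control cells. Of 8 Sfrp and Dkk genes, which encode Wnt inhibitors, 3 were called in both KO lists and none in both control lists. Sfrp5 had 2183 and 1507 bp in KO cells, against no peak and 792 bp in control cells. Wnt genes had 8 of 19 members in both KO lists and 10 in both control lists, and all 19 were called in some list. The counts were 7 and 6 without 501 bp peaks, and 8 and 10 at equal list length by width. Wnt1 had 6115 and 6710 bp in KO cells, against 4437 and 501 bp in control cells. Wnt7b had 2944 and 7438 bp in KO cells, against 2633 and 1068 bp in control cells, and Wnt2b 2904 bp and no peak in KO cells, against 2920 and 2274 bp in control cells. Where Wnt genes were called in all 4 lists (5 genes), all 5 were wider in KO cells, with a median log2 ratio of 1.10. Bmp and Fzd genes had 1 of 11 (9.09%) and 1 of 10 (10%) called in both KO lists and none in both control lists. The KO shares were near the 7.84% of all protein-coding genes. In some list 5 genes of each family were called (45.5% and 50%), where 20.3% of all protein-coding genes were.

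Families of the cell surface showed the same order of groups. Of 22 Eph and ephrin genes, receptors and ligands of cell contact, 6 were called in both KO lists and 1 in both control lists. Of 20 semaphorin genes, which guide axons, 5 and 2 were called, and Sema6b had 6172 and 5663 bp in KO cells, against 1226 and 1947 bp in control cells. Of 94 potassium channel genes 32 were called in both KO lists and 20 in both control lists. Kcnk9 had 3962 and 3800 bp in KO cells, against 3809 and 4086 bp in control cells, so its groups overlapped. Of 57 clustered protocadherin genes, 16 were called in both KO lists and 5 in both control lists, but with a median smaller KO width of only 501 bp.

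The counts over all 26 families and over Hox genes depended on which peaks were kept, and were higher in KO cells in each of 4 alternatives, applied to these counts after seeing the data. When every list was kept to its first 6312 rows, 184 of the 492 members were called in both KO lists and 123 in both control lists, with 30 and 19 Hox genes. The first control list has 6312 peaks and was not cut, while the KO lists lost later rows, where narrow peaks lie. With each list kept to its widest peaks at that length the counts were 166 and 121, with 28 and 19 Hox genes. In the wider 50% of each list they were 160 and 82, with 26 and 15 Hox genes, and without 501 bp peaks 158 and 67, with 26 and 12 Hox genes. In the first 6312 rows, 38.7% and 40.0% of KO peaks lay at protein-coding gene ends, against 27.4% and 29.1% of control peaks. In the full lists the shares were 27.3% and 28.1% in KO cells, against 27.4% and 26.8% in control cells, and did not differ beyond the spread (exact permutation test, two-sided p = 0.667). Ends with 1000 bp on either side make up 2.94% of the sequence between the first and last protein-coding genes of the chromosomes. The share at gene ends thus depended on how far down the lists peaks were taken.

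Among genes of the Polycomb machinery, those of PRC2 had few calls and those of PRC1 more. Of 13 PRC2 genes 1 was called in any list, Phf19, an accessory subunit that reads H3K36 methylation, with 635 bp and no peak in KO cells, against no peak and 888 bp in control cells. Of 19 PRC1 genes 6 (31.6%) were called in some list, 3 (15.8%) in both KO lists and none in both control lists. Over all protein-coding genes these shares were 20.3%, 7.84% and 3.62%. Cbx8 had 5927 and 4228 bp in KO cells, against 2951 bp and no peak in control cells, and Cbx2 had 1690 and 1783 bp in KO cells, against no peak in either control list. None of 3 H3K27 demethylase genes was called. Mettl14 and Mettl3 had no H3K27me3 peak in any list, which says nothing of the deletion itself, since peak lists do not show it.

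The embryonic stem cell identity of the lists could be checked only by absence. Of all protein-coding genes 20.3% were called in at least 1 list, so few calls in sets this small say little about identity. None of 15 housekeeping genes was called in any list, and of 8 stem cell markers Esrrb alone was, with 767 and 501 bp in KO cells, against no peak in control cells. Pou5f1, Sox2, Nanog, Klf4, Klf2, Zfp42 and Tdgf1 had no H3K27me3 peak. In a longer list of 20 pluripotency genes 3 (15%) were called in some list. Besides Esrrb these were Dppa3, with 501 bp in each KO list, against no peak and 501 bp in control cells, and Lefty1, with 965 bp and no peak in KO cells, against no peak in control cells. In the H3K4me3 lists of the same cells, 7 of the 8 markers were called in both KO lists and 4 in both control lists. Of 8 fibroblast markers 3 (Twist2, Col1a1 and Thy1) had an H3K27me3 peak in 1 list each, and none in both lists of either group. H3K4me3 was called at 1 of them (Dcn), in the first KO list alone. In some list H3K27me3 was called at 5 of 7 trophectoderm markers and 5 of 7 primitive endoderm markers. The same held for 6 of 6 markers of epiblast and primed cells.

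Genes called in both KO lists and no control list numbered 531 (2.43% of protein-coding genes), and genes called in both control lists and no KO list 69 (0.315%). Of the 531, 144 (27.1%) lay in a merged region that also held a control peak away from the gene's ends, and so did all of the 10 with the widest KO peaks. Egr3, an immediate-early transcription factor gene, had 8594 and 5798 bp in KO cells, and the region around it held 1002 and 1328 bp of control peaks inside and beside the gene. Fgfr3, a fibroblast growth factor receptor gene, had 5734 and 8023 bp in KO cells, and its region held 501 and 4194 bp of control peaks. Efna3, an ephrin ligand gene, had 4696 and 4677 bp in KO cells, and its region held 501 and 2135 bp in control cells. At these genes the KO peaks reached an end that the control peaks in the same place did not. Nptx1 (a neuronal pentraxin), Slc35d3 (a transporter) and Adamtsl5 (a matrix protein) stood in the same 10 with smaller KO widths between 3657 and 4799 bp. Ap5b1 with Ovol1, and Pygm with Rasgrp2, are neighbours that share a peak and count as 4 genes. The 387 genes with no control peak in the region had a median smaller KO width of 501 bp, the narrowest there is, against 869 bp for the 144.

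The 10 control-only genes with the widest peaks had narrower ones than the 10 KO-only genes above, with a smaller width of at most 1595 bp. Of the 69, 53 had no KO peak in the region, and their median smaller width was 501 bp, the same as for the 387 KO-only genes. Tmod1, which caps actin filaments, had no peak at its ends in KO cells, against 2440 and 1595 bp in control cells. Tmem114 had 1763 and 1552 bp, Tdrd5 (a germ-line tudor protein) 1351 and 1435 bp, and Hs3st6 (a heparan sulfate sulfotransferase) 1204 and 3723 bp in control cells, with no peak in KO cells. Lgr5, a receptor of R-spondins on stem cells, had no peak in KO cells, against 1196 and 874 bp in control cells, and Car4, a carbonic anhydrase, none in KO cells, against 802 and 968 bp in control cells. At these 6 genes the merged region of the control peaks held no KO peak either, though a 501 bp peak of the second KO list lay further inside Tmod1. Wnt5b, T and Cdh8 also stood in the top 10, but KO peaks lay nearby: 1441 and 501 bp in the region of Wnt5b, 795 bp in the first KO list at T and 501 bp in the first KO list at Cdh8.

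Micro RNA genes, which were looked at after values had been seen, included several wide peaks away from protein-coding genes. Of 1228 such genes 42 (3.42%) were called in both KO lists and 20 (1.63%) in both control lists, 12 (0.977%) in KO lists alone and 2 (0.163%) in control lists alone. Neighbouring genes share peaks, so these are not independent counts. The mature sequences of those described here and in the account of gene-poor peaks are printed from RefSeq (GRCm38.p6), 5′ to 3′, with the seed (bases 2 to 8) in capitals, and miR-132-3p and miR-212-3p have the same seed.
mmu-miR-132-3p: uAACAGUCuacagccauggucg
mmu-miR-212-3p: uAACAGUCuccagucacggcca
mmu-miR-9-5p: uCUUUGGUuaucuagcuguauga
mmu-miR-129-5p: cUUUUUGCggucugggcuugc
mmu-miR-137-3p: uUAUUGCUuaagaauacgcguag
mmu-miR-203-3p: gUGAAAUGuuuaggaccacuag
Mir132 and Mir212, neuronal micro RNAs made from 1 transcript, shared a peak of 8021 and 7235 bp in KO cells, against none in control cells. Mir129-2 had 7742 and 5784 bp in KO cells, against no peak and 2723 bp in control cells. Mir203, a micro RNA of skin, had 2731 and 3437 bp in KO cells, against 1521 and 786 bp in control cells. In all of these the groups did not overlap. The neural micro RNA miR-9 comes from several genes, and they differed. Mir9-3 had 6794 and 5948 bp in KO cells, against no peak and 6095 bp in control cells, and Mir9-1 had 3259 and 1074 bp in KO cells, against 5762 and 2958 bp in control cells, with the groups overlapping at both. Mir124a-3 had 3654 and 5759 bp in KO cells, against 2911 and 2513 bp in control cells.

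Gene-poor peaks, here those at least 100000 bp from any protein-coding gene, were few and mostly not replicated. They numbered 421 and 405 in KO cells, against 210 and 272 in control cells, or 3.71% and 3.54% of KO peaks, against 3.33% and 3.78% of control peaks (exact permutation test, two-sided p = 1). Such places make up 29.2% of the sequence between the first and last genes of the chromosomes, so peaks were scarce there in both groups. In the first 6312 rows of every list the shares were 1.87% and 1.81% in KO cells, against 3.33% and 3.07% in control cells. That cut leaves the first control list whole and takes the later rows of the KO lists, where narrow peaks lie. Most gene-poor peaks were narrow, so a lower KO share partly follows from the cut. In KO lists 10.5% and 11.4% of gene-poor peaks met the other replicate, against 6.19% and 4.78% in control lists, where 31.4% and 31.0% of the other KO peaks and 23.8% and 20.7% of the other control peaks did. Of gene-poor peaks, 78.6% and 76.3% in KO cells and 79.5% and 83.5% in control cells were 501 bp wide.

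Of 1163 merged gene-poor regions 1061 (91.2%) came from 1 list, 20 (1.72%) were in both KO lists alone, 4 (0.344%) in both control lists alone and 6 (0.516%) in all 4. The widest in both KO lists lay between Abhd5 and Topaz1 on chr9:122568603-122573799, over the long non-coding RNA gene 9530059O14Rik and 173399 bp from Topaz1. It had 3752 and 3952 bp in KO cells, against 1779 and 501 bp in control cells. Next came a pair between Vrk1 and Gm46320, both over long non-coding RNA genes. The first, on chr12:106476801-106481121, had 3106 and 2869 bp in KO cells, against 2400 and 501 bp in control cells, and the second, on chr12:106445722-106449532, had 3811 and 2308 bp in KO cells, against 1393 bp and no peak in control cells. These regions were ranked by their smaller KO width, so KO widths above control widths there partly follow from that choice. Of the 6 gene-poor regions in all 4 lists, 4 were wider in KO cells and 2 narrower. Of the 44 gene-poor regions in both KO lists, 17 overlapped a gene of another type, and 29 had a smaller KO width of 501 bp. The region of Mir137, on chr3:118433407-118434564, had 1158 and 501 bp in KO cells, against no peak in control cells. The region of Mir124a-2, on chr3:17794795-17796178, had 501 and 946 bp in KO cells, against 501 bp and no peak in control cells. A 501 bp peak of the second control list lay outside that region but within 1000 bp of Mir124a-2, so the gene was called in all 4 lists.

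Chromosome 8 held more of the gene-poor peaks than any other chromosome in all 4 lists, with 110 of 421 and 93 of 405 in KO cells, against 61 of 210 and 68 of 272 in control cells. Those shares were 26.1% and 22.96% in KO cells, against 29.05% and 25% in control cells, while chromosome 8 has 4.86% of the gene-poor sequence. Of all H3K27me3 peaks it held 9.39% and 8.45% in KO cells, against 8.86% and 8.91% in control cells, with 4.77% of protein-coding genes. The share was alike in both groups. In the H3K4me3 lists 23.2% and 18.1% of gene-poor peaks were on chromosome 8 in KO cells, against 20.9% and 20.8% in control cells, and in the H3K27ac lists 6.23% and 7.21% in KO cells, against 5.43% and 5.08% in control cells. The X chromosome was low in H3K27me3, with 0.652% and 0.708% of peaks in KO cells, against 0.570% and 0.541% in control cells, and 4.41% of protein-coding genes. Copy number and mappability of these chromosomes were not tested.

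H3K4me3, a mark of active and poised starts, was also called at more places in KO cells, with 8131 and 8055 peaks, against 2859 and 2431 in control cells, while H3K27ac, a mark of active elements, had 15271 and 15058 in KO cells, against 15541 and 13520 in control cells. The labels name the H3K4me3 antibody for the H3K27ac samples as well. H3K27me3 peaks that overlapped a peak in either H3K4me3 list of the same group made up 5.06% and 5.43% in KO cells, against 0.824% and 0.847% in control cells. For H3K27ac the shares were 2.62% and 2.65% in KO cells, against 2.03% and 1.89% in control cells. The overlap with H3K4me3 depends on the length of the H3K4me3 lists, and that part was not tested. Of the 531 KO-only genes 62 (11.7%) had H3K4me3 in both KO lists, of the 477 genes called in all 4 lists (2.18% of protein-coding genes) 24 (5.03%), and of all protein-coding genes 5242 (24.0%). Of the 17447 genes with no H3K27me3 call, 4791 (27.5%) had it.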

How the data were processed

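Chromatin was crosslinked with formaldehyde, precipitated with a rabbit antibody against H3K27me3 together with spike-in chromatin and antibody, and sequenced, per the labels' protocols. The submitters' processing notes name CASAVA, Trimmomatic 0.38, Bowtie2 2.4.1, SAMtools, HOMER and build mm10. How peaks were called, and whether inputs and spike-in were used, is not given in the sources used here. The authors deposited 1 BED file a sample with chromosome, start and end of each peak and a score that is 1 in every row, so no height, count or depth is known and precision is limited to 2 lists a group.

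Peaks were read with Python 3.11.15 (pandas 2.3.3, NumPy 2.4.6) and merged where they overlapped by at least 1 bp. Gene ends and promoter windows came from RefSeq on GRCm38.p6, with windows for 17492 of 21887 protein-coding genes. A gene's value was its widest peak within 1000 bp of an end. Log2 values or percentages of the groups were compared over all 6 assignments of lists (exact permutation test, two-sided). The scripts were tested on simulated lists. Genes named in each family were the 3 members with the largest smaller width of the 2 KO lists, and control-only members. The 10 widest domains and the widest gene-poor regions were also ranked by the smaller KO width. KO widths above control widths at places so picked partly follow from that choice. Also named were the 10 genes of each one-group set with the widest peaks, and the 10 shared regions with the largest and with the smallest ratios. Mettl14, Mettl3, Polycomb genes with a call and stem cell markers were named too, with others chosen after values were seen. Some of these are not reported here. Members and lists were chosen with earlier results of these data known. Alternatives cut the lists, windows, widths and replicates, and the row-order cut and gene ends of any type were added after seeing the data.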

Additional observations from a re-analysis of the deposited data

How the results depend on the processing

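With 2 lists a group no test could pass 0.05, depth was unknown, and 501 bp was the narrowest width, so narrow peaks carry no information on size. Of 81 alternative values of the 7 compared measures, 73 kept their direction. Some of the 73 were fixed in advance: a replicate block cannot change the difference of any of the 7 measures. Halving every list likewise cannot change the difference in peak number. The 5 measures of number, length, width, wide domains and shared-region width kept it in every alternative run. The share at gene ends turned to −2.76 percentage points with a window of 2500 bp and to −1.88 with the whole gene span. The gene-poor share turned to −0.14 percentage points in the wider 50% of each list, −1.04 at equal list length by width, −1.36 at equal length by row order and −0.0072 with genes of any type, and ranged from −0.15 to 0.30 with 1 list left out. KO-only genes numbered 338 at equal length by width and 856 to 1195 with 1 list left out, against 531. Control-only genes numbered 35 without minimum-width peaks, 45 with a window of 500 bp, 45 with transcription starts alone and 170 to 320 with 1 list left out, against 69. KO-only regions numbered 728 in the wider 50%, 586 at equal length by width, 685 by row order, 738 without minimum-width peaks and 1729 to 8024 with 1 list left out, against 1210. Control-only regions numbered 121 in the wider 50%, 75 without minimum-width peaks and 497 to 3718 with 1 list left out, against 259. Fewer peaks or fewer lists to agree make these counts move by construction. Same-numbered lists did not deviate together (correlation 0.0243 over the 879 shared regions), and with a replicate block the differences were as before (0.76 on the log2 scale for peak number, paired exact permutation p = 0.5, the smallest 2 pairs can give).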
